A study of Mus musculus with 21 samples.

Results

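The red blood cell genes described here were Hba-a1, Hba-a2, Hbb-bs, Hbb-bt and Alas2, 5 of the 16318 genes in the brain RNA-seq table. They were chosen by name, on the premise that their transcripts in whole brain come from blood left in the tissue, which was not tested. All 5 were present in the table of estimated read counts of the 21 labelled mice. The presence of those counts was the only measured value in the rule, but the names were picked with earlier results on these data known, so the p-values below describe these mice and are not independent evidence about the list. All mice were SAMP8, a senescence-accelerated strain used as a model of age-related cognitive decline. RNA was taken from the whole brain, and the question was how dosing with HsTX1[R14A], a peptide that blocks the potassium channel Kv1.3, changed the brain transcriptome.

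The PBS female group (6 mice) and the PBS male group (6 mice) received the vehicle, phosphate-buffered saline. The HsTX1[R14A] female group (3 mice) and the HsTX1[R14A] male group (6 mice) received the peptide at 1 mg/kg under the skin every other day. Dosing began at 4 months of age and ran for 8 weeks, so all mice were about 6 months old at the end. The vessels were flushed with ice-cold PBS before the brain was removed, a step that all 4 groups shared, and the blood left behind was not measured. Each library is labelled as a separate mouse, and mice are named below by the number in their label. Library totals ran from 14917174 to 47613792 estimated counts. The column names of the table come in 2 forms, 15 libraries with SAMP8 and 6 with SAMP in the name. This naming difference is used below to divide the libraries, but the labels do not say what it stands for. Brain markers were abundant in every library, with a summed level of 16 neuronal, glial and microglial genes between 9156 and 13962 CPM (counts in every 1000000, with library sizes scaled by the trimmed mean of M values).

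Hemoglobin is a tetramer of alpha and beta chains, each holding a heme group, and fills the cytoplasm of the red blood cell. Mammalian red blood cells lose their nucleus, and the globin RNA found in blood is carried mainly by reticulocytes, the youngest circulating red cells, which still translate the transcripts they inherited. ALAS2 is the erythroid form of the enzyme that starts heme synthesis, while its relative ALAS1 does this in all other tissues.

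Adult mice have a pair of alpha globin genes and a pair of beta globin genes, and the members of each pair are close to identical. In GRCm38 with GENCODE M21, Hba-a1 (ENSMUSG00000069919) lies at chr11:32283511-32284465 and Hba-a2 (ENSMUSG00000069917) at chr11:32296489-32297298, both on the plus strand. Their coding sequences are 429 bases long, and 1 base separates them, at coding position 381 counted from the A of the start codon (C381T from Hba-a1 to Hba-a2). The untranslated parts of the transcripts, which could also tell reads apart, were not compared in either pair. The 51 coding bases around that position, in exon 3 of 3, show how little coding sequence divides the pair. They are printed with the separating base in capitals.
Hba-a1 (chr11:32284318-32284368, plus strand): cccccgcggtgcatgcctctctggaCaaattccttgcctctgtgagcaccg
Hba-a2 (chr11:32297135-32297185, plus strand): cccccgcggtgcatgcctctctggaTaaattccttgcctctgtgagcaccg

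Hbb-bs (ENSMUSG00000052305) lies at chr7:103826534-103828096 and Hbb-bt (ENSMUSG00000073940) at chr7:103812524-103813996, both on the minus strand. Their 444 coding bases also differ at 1 position (C417T from Hbb-bs to Hbb-bt), again in exon 3 of 3. The longest coding run shared by the beta pair is 416 bases, and by the alpha pair 380 bases.
Hbb-bs (chr7:103826667-103826717, minus strand): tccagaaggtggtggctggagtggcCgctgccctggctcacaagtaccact
Hbb-bt (chr7:103812658-103812708, minus strand): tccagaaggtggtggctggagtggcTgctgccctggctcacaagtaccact
A coding read that does not cross that base matches both genes of a pair. The estimated counts showed this: Hba-a1 and Hba-a2 had fractional values in 13 of 21 mice and Hbb-bs and Hbb-bt in 20 of 21, while Alas2 had whole numbers in all. The split within a pair is therefore uncertain, and the sum of a pair is the firmer value. The reference carries one haplotype of the beta cluster, and mouse strains differ in it. Which haplotype these SAMP8 mice carry was not examined.

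Alas2 (ENSMUSG00000025270) lies at chrX:150547375-150570638 on the plus strand, inside the span that the annotation gives to Apex2 on the opposite strand. Upstream sequence of all 5 genes was available from RefSeq (GRCm38.p6). For an alpha, a beta and the Alas2 gene, the longest stretch outside every annotated exon of the gene is shown, within 150 bases of the RefSeq start. The Hbb-bs stretch lies inside the annotated span of its gene, and the Alas2 stretch ends 43 bases before the RefSeq start. Capitals mark matches, on either strand, to CCAAT, to CCNCNCCC (the CACCC type of element) or to AGATAA (the GATA type).
Hba-a2 (chr11:32296342-32296488, plus strand): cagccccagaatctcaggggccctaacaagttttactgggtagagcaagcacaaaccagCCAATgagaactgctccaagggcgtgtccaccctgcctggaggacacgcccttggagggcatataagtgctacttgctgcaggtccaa
Hbb-bs (chr7:103827929-103828011, minus strand): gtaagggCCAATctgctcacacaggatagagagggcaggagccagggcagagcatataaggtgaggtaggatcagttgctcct
Alas2 (chrX:150547267-150547374, plus strand): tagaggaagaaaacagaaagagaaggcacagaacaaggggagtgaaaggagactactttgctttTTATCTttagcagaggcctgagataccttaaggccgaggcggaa
Over the whole 250 bases upstream, CCAAT was found in 4 of the 5 genes (all but Alas2) and in 33.85% of 32851 promoters of the same length. CCNCNCCC was found in Hbb-bs, Hbb-bt and Alas2 and in 45.93% of all promoters, and AGATAA in Hbb-bs and Alas2 and in 9.99% of all. These are letter matches only.

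Globin transcripts were a trace component of every brain library, and their amount differed widely between mice of the same group. The 4 globin genes together made up between 0.000565% and 0.0153% of all counts. Summed globin ranged from 5.73 CPM in PBS female mouse 104 to 154 CPM in PBS male mouse 101, a 26.96-fold range, with a coefficient of variation of 0.828 over the 21 mice. The PBS female mice had the lowest levels, between 5.73 and 34.0 CPM with a median of 16.7. The PBS male mice ranged from 15.8 to 154 CPM with a median of 44.3, and 5 of the 6 lay above every PBS female mouse. The HsTX1[R14A] female mice had 46.0, 86.4 and 33.1 CPM (mice 71, 72 and 98), and 2 of the 3 lay above every PBS female mouse. In the HsTX1[R14A] male mice the range was 14.97 to 86.5 CPM with a median of 33.5, inside that of the PBS male mice apart from its lowest value. The cells that carried this RNA were not identified. In bulk tissue, more residual blood, more globin RNA per red cell and RNA from other cells cannot be told apart.

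**Figure D1:**
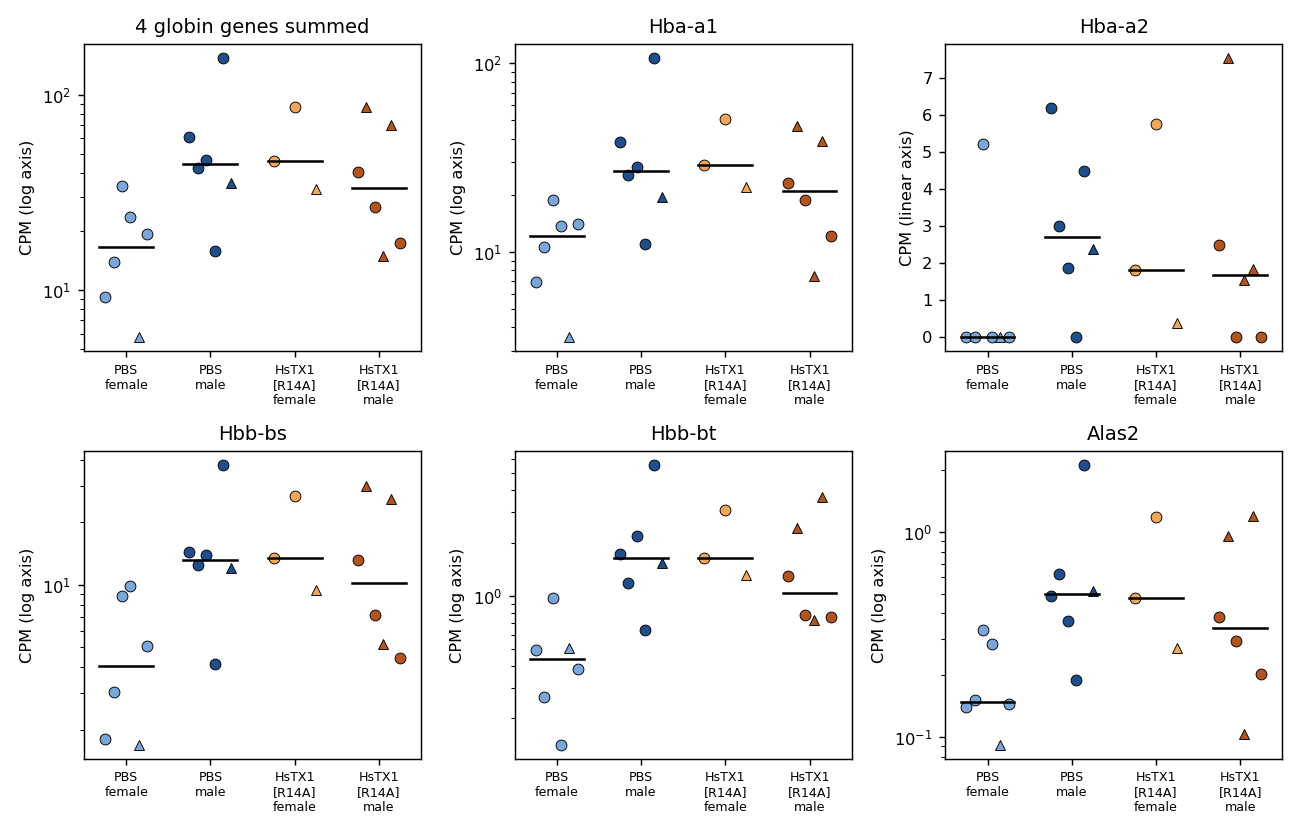
Level in CPM of the 4 summed globin genes and of each of the 5 genes, 1 point per mouse, by group; horizontal bars are group medians, circles are libraries with SAMP8 in the column name and triangles those with SAMP. All axes are logarithmic except that of Hba-a2, which was at 0 in 8 mice; PBS male mouse 101 (154 CPM of globin) is the highest point in the summed panel, and PBS female mice are the lowest group.

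Hba-a1, the more abundant alpha chain gene in the estimates, was detected in all 21 mice with 77 to 3292 counts. It ranged from 3.53 to 18.95 CPM (median 12.2) in PBS female mice and from 11.01 to 107 CPM (median 27.01) in PBS male mice. The HsTX1[R14A] female mice had 29.01, 50.8 and 22.02 CPM, all above every PBS female mouse. The HsTX1[R14A] male mice ranged from 7.51 to 46.8 CPM (median 21.04) and overlapped the PBS male mice.

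Hba-a2, the second alpha chain gene, was at 0 counts in 8 mice, of which 5 were PBS female mice, 1 was a PBS male mouse and 2 were HsTX1[R14A] male mice. For counting error alone, a count of 0 allows up to about 3 counts in that library. This bound leaves out the uncertain split of the alpha pair, so a 0 does not show that Hba-a2 RNA was absent. Among these libraries, that of HsTX1[R14A] male mouse 88 had 705 counts of Hba-a1. The only PBS female mouse with Hba-a2 counts was mouse 85, at 5.22 CPM. Elsewhere Hba-a2 reached 6.17 CPM in PBS male mice, 5.75 CPM in HsTX1[R14A] female mice and 7.53 CPM in HsTX1[R14A] male mice.

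Hbb-bs, the more abundant beta chain gene, followed Hba-a1 closely but not in the same order of mice (Spearman rho of 0.966 over 21 mice, as a description). It ranged from 1.70 to 9.86 CPM (median 4.04) in PBS female mice and from 4.16 to 37.6 CPM (median 13.2) in PBS male mice. The HsTX1[R14A] female mice had 13.5, 26.7 and 9.41 CPM, and the lowest of them fell below the highest PBS female mouse. In HsTX1[R14A] male mice the level ran from 4.45 to 29.8 CPM with a median of 10.2.

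Hbb-bt, the other beta chain gene, was lower. PBS female mice had 0.142 to 0.971 CPM (median 0.436), which in mouse 103 rested on 2 counts. PBS male mice had 0.635 to 5.52 CPM (median 1.63). The HsTX1[R14A] female mice had 1.65, 3.07 and 1.32 CPM, all above every PBS female mouse, and the HsTX1[R14A] male mice had 0.725 to 3.62 CPM (median 1.03).

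Alas2, the heme enzyme, had between 2 and 65 counts per library. PBS female mice had 0.0917 to 0.333 CPM (median 0.148) and PBS male mice 0.190 to 2.11 CPM (median 0.498). The HsTX1[R14A] female mice had 0.478, 1.18 and 0.271 CPM, of which 2 lay above every PBS female mouse. The HsTX1[R14A] male mice spread from 0.104 to 1.19 CPM (median 0.339). Per kilobase of the longest transcript, the mean level over 21 mice was 37.3 CPM for Hba-a1, 19.7 for Hbb-bs, 3.82 for Hba-a2, 2.11 for Hbb-bt and 0.245 for Alas2. The SD was 32.4 for Hba-a1, 15.7 for Hbb-bs and 0.241 for Alas2.

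With the sexes combined and sex as a covariate, none of the 5 genes differed between HsTX1[R14A] and PBS mice beyond the spread within groups. The log2 fold change was 0.30 ± 0.45 (SE) for Hba-a1, 0.33 ± 0.88 for Hba-a2, 0.63 ± 0.45 for Hbb-bs, 0.54 ± 0.45 for Hbb-bt and 0.34 ± 0.48 for Alas2. Adjusted p-values from edgeR's quasi-likelihood test, corrected over the 16303 genes tested, lay between 0.276 (Hbb-bs) and 0.783 (Hba-a2). By comparison 31.6% of all genes tested were called at an adjusted p of 0.05 or less. None of the 5 had an unadjusted p under 0.05, against 46.4% of all genes. Without PBS male mouse 101 the log2 fold changes rose to 0.69 for Hba-a1, 0.92 for Hbb-bs, 0.93 for Hbb-bt and 0.85 for Alas2, and the last 3 had an unadjusted edgeR p of 0.0357, 0.0270 and 0.0493, with adjusted p of 0.0925, 0.0778 and 0.114. The count over all genes changed with the length slope (described with the female comparison) and with the form of the column name. The count of red blood cell genes called stayed at 0. Kcna3, which encodes the channel that the peptide blocks, was higher in the HsTX1[R14A] mice in the same fit (log2 fold change 0.53 ± 0.14, adjusted p = 0.0180 with edgeR). The count over all genes was 0 with the length slope as a covariate and 0 among the 15 mice with SAMP8 in the column name. The Kcna3 call and the treatment calls given below were thus lost in both settings. Those 15 mice hold only 5 of the 9 HsTX1[R14A] mice, and fewer mice also make calls less likely. Among them 5797 of 16305 genes had an unadjusted edgeR p under 0.05. With the name form as a covariate in all 21 mice, 1999 genes were called. What part of the loss came from the smaller number of mice was not tested.

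The treatment difference had opposite signs in the 2 sexes for all 5 genes, without reaching the threshold. Among females the treated mice had a log2 difference from their PBS controls of 1.58 ± 0.59 (SE) for Hba-a1, 1.41 ± 1.36 for Hba-a2, 1.71 ± 0.65 for Hbb-bs, 2.05 ± 0.61 for Hbb-bt and 1.74 ± 0.72 for Alas2. None was called after correction (adjusted p from 0.1505 to 0.474 with edgeR), and 0.0% of all genes were called in this comparison. An unadjusted p under 0.05 was reached by 4 of the 5 genes, all but Hba-a2, and by 27.8% of all genes. Exact two-sided permutation tests on log2 CPM within the females gave p = 0.0238 for Hba-a1, 0.0357 for Hba-a2, 0.0476 for Hbb-bs, 0.0119 for Hbb-bt and 0.0357 for Alas2, where 0.0119 was the smallest value that 84 labelings of 6 and 3 mice can give. These exact values are not adjusted for the number of genes. That of Hba-a2 rests on 5 of the 6 PBS female mice tied at 0 counts (log2 CPM -3.76). The difference in log2 CPM for Hba-a2 was 3.51, against 1.41 in edgeR, and depends on the uncertain split of the alpha pair. Without HsTX1[R14A] female mouse 72, the highest of the 3, only Hbb-bt kept an unadjusted edgeR p under 0.05 (0.0327), with 0.0981 for Hba-a1, 0.123 for Hbb-bs and 0.278 for Alas2, and the log2 differences were 1.60 for Hbb-bt, 1.17 for Hba-a1, 1.18 for Hbb-bs, 0.94 for Alas2 and 0.16 for Hba-a2.

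Among males the values were lower in the treated mice but small beside their errors. They were -0.64 ± 0.50 for Hba-a1, -0.45 ± 1.15 for Hba-a2, -0.15 ± 0.54 for Hbb-bs, -0.44 ± 0.49 for Hbb-bt and -0.51 ± 0.56 for Alas2. Adjusted p lay between 0.395 and 0.871 with edgeR, and again 0.0% of all genes were called. The male values depended on PBS male mouse 101: without it the difference was -0.29 for Hba-a2, 0.00 for Hba-a1 (-0.0039 before rounding), 0.32 for Hbb-bs, 0.12 for Hbb-bt and 0.21 for Alas2. Among the 15 mice with SAMP8 in the column name, with 3 treated males, the male values were larger, at -1.23 ± 0.57 for Hba-a1, -1.83 ± 1.65 for Hba-a2, -1.001 ± 0.64 for Hbb-bs, -1.26 ± 0.62 for Hbb-bt and -1.34 ± 0.67 for Alas2. The lowest unadjusted p of these 5 was 0.0474, for Hba-a1, with an adjusted p of 0.401 in edgeR.

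The difference between the sexes in the treatment effect was tested directly by an interaction term. It was 2.23 ± 0.78 for Hba-a1, 1.86 ± 1.79 for Hba-a2, 1.86 ± 0.85 for Hbb-bs, 2.49 ± 0.79 for Hbb-bt and 2.25 ± 0.91 for Alas2 on the log2 scale. Unadjusted p was 0.00936 for Hba-a1, 0.0392 for Hbb-bs, 0.00475 for Hbb-bt and 0.0225 for Alas2 in edgeR, and 4 of 5 genes were thus under 0.05 where 1.66% of all genes were. Adjusted over all genes, p was 1.00 for each, and 0.0% of all genes were called. The 5 genes rose and fell together from mouse to mouse, so 4 of 5 is close to 1 observation repeated. Without HsTX1[R14A] female mouse 72 the interaction fell to 1.33 for Hbb-bs and 1.46 for Alas2, with unadjusted p of 0.162 and 0.163 in edgeR, and to 0.60 for Hba-a2. For Hba-a1 it was then 1.81 and for Hbb-bt 2.04, with unadjusted edgeR p still under 0.05 (0.0432 and 0.0270). Without PBS male mouse 101 the interaction was 1.58 for Hba-a1, 1.39 for Hbb-bs, 1.93 for Hbb-bt and 1.53 for Alas2. Unadjusted edgeR p was then 0.0274 for Hba-a1, 0.0990 for Hbb-bs, 0.0118 for Hbb-bt and 0.0675 for Alas2. No gene was called after correction with either mouse left out. In the 15 mice with SAMP8 in the column name the interaction ran from 2.83 (Hbb-bs) to 3.56 (Hbb-bt), and no gene was called.

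**Figure D2:**
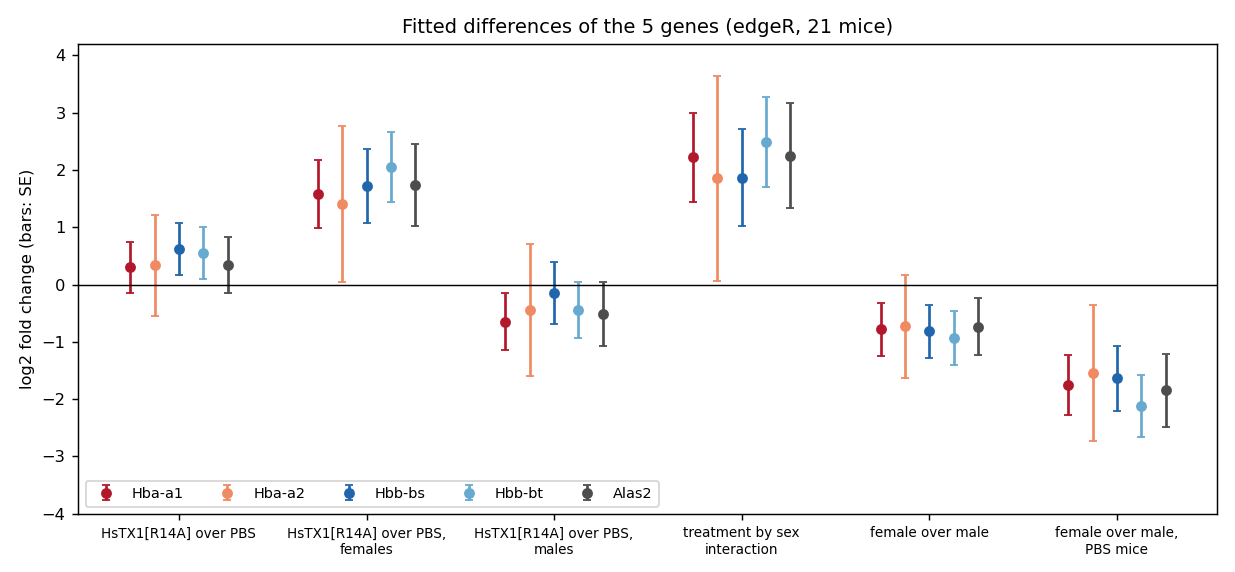
Log2 fold changes (points) with their SE (bars) for the 5 genes in 6 comparisons fitted by edgeR over 21 mice; the horizontal line marks no difference. The values among females lie between 1.41 and 2.05 and those among males between -0.64 and -0.15, and no gene passed the adjusted threshold in any of the 6.

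Several library measures moved with the female comparison. The 3 HsTX1[R14A] female libraries had 7.13% to 9.30% of counts in mitochondrially encoded genes against 9.33% to 19.97% in the PBS female libraries, with no overlap. Their length slope, the change in log2 CPM per doubling of transcript length relative to the average library, was 0.163 to 0.234 against -0.384 to 0.147. The summed level of 16 endothelial genes was 207 to 246 CPM against 145 to 218 CPM. Their library totals were 34271921, 47613792 and 24465565 counts, against 14917174 to 36207554, so the ranges overlapped. With the length slope as a covariate the female differences were 1.58 for Hba-a1, 1.90 for Hbb-bs, 2.10 for Hbb-bt and 1.86 for Alas2, close to those without it, but that of Hba-a2 went from 1.41 to 0.49. In the female comparison 0 genes were called with or without this covariate, and in the comparison of treatment over both sexes the count went from 5144 to 0. Among the 15 mice with SAMP8 in the column name, with 2 treated females, the female differences were 1.64 for Hba-a1, 1.68 for Hba-a2, 1.83 for Hbb-bs, 2.30 for Hbb-bt and 1.94 for Alas2, and the count over all genes for treatment was also 0. The part of the mitochondrial share, the library total and the endothelial level in the female difference was not tested.

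The medians of the sexes were in opposite order in the PBS and the HsTX1[R14A] mice. Median summed globin was 16.7 CPM in female and 44.3 CPM in male PBS mice, but 46.0 CPM in female and 33.5 CPM in male HsTX1[R14A] mice. Over both treatments, with treatment as a covariate, the log2 difference of female over male ran from -0.93 ± 0.47 (Hbb-bt) to -0.73 ± 0.89 (Hba-a2). None of the 5 genes had an adjusted p at or under 0.05 with edgeR (0.0552% of all genes did), nor an unadjusted p under 0.05 (10.8% did). Among the PBS mice alone, a comparison added after the values had been seen, the difference was -1.75 ± 0.52 for Hba-a1, -1.55 ± 1.19 for Hba-a2, -1.64 ± 0.56 for Hbb-bs, -2.12 ± 0.54 for Hbb-bt and -1.85 ± 0.64 for Alas2. Adjusted p was 0.929 for each with edgeR, while 0.0429% of all genes were called. Unadjusted p was under 0.05 for 4 of the 5, against 2.97% of all genes. Without PBS male mouse 101 these differences shrank to -1.11 for Hba-a1, -1.39 for Hba-a2, -1.17 for Hbb-bs, -1.56 for Hbb-bt and -1.12 for Alas2, and the unadjusted edgeR p of Alas2 was then 0.0648. DESeq2 called Hbb-bt in this comparison (log2 difference -2.19, adjusted p = 0.0393) and none of the other four. The PBS female mice served as controls in the female treatment comparison as well, so their low values enter both.

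The levels of the 5 genes rose and fell together across mice while summed globin changed 26.96-fold, but their proportions were not fixed. The summed alpha and the summed beta globin levels followed each other with Pearson r of 0.955 and Spearman rho of 0.961 over 21 mice on log2 CPM, as a description. Alas2 followed the alpha pair with r of 0.928 and the beta pair with r of 0.932. Within the 15 libraries with SAMP8 in the name the alpha-to-beta value was 0.962, and within the other 6 it was 0.991. The points of each pair share a library and its depth.

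Alas2 made up 11.8 of every 1000 counts of the 5 genes when all mice were pooled (307 of 25948 counts). Per mouse the share was 11.3 ± 2.89 (SD, n = 21), from 6.87 to 16.7. The 95% exact binomial (Clopper-Pearson) interval of every one of the 21 mice held the pooled share, and such intervals cover counting error only. In the library with the most globin, PBS male mouse 101, the share was 13.5 (interval 10.4 to 17.1), and in HsTX1[R14A] female mouse 72 it was 13.5 (10.2 to 17.4). Differences between mice in this proportion were thus not detectable at this depth.

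The alpha-to-beta ratio of counts, not corrected for length, varied more than counting error alone. It averaged 2.13 ± 0.53 (SD, n = 21) and ran from 1.37 in PBS female mouse 103 to 3.24 in PBS female mouse 84. Alpha globin was 67.3% of all globin counts when pooled, and the exact interval held this value in 8 of 21 mice, with 6 mice above it and 7 below. By group the mean ratio was 2.38 ± 0.75 in PBS female and 2.21 ± 0.43 in PBS male mice. It was 2.01 ± 0.099 in HsTX1[R14A] female and 1.85 ± 0.41 in HsTX1[R14A] male mice, and the group ranges overlapped. The ratio also went with the form of the column name. Libraries with SAMP had 1.60, 1.62, 2.09, 1.69, 1.54 and 1.38 (mice 104, 102, 98, 81, 89 and 92). Of those with SAMP8, mouse 103 had 1.37 and the others 1.77 (mouse 74) to 3.24. SAMP was in the name of 4 of 9 HsTX1[R14A] and 2 of 12 PBS libraries, so the group means mix treatment and name form. What part each had was not tested.

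**Figure D3:**
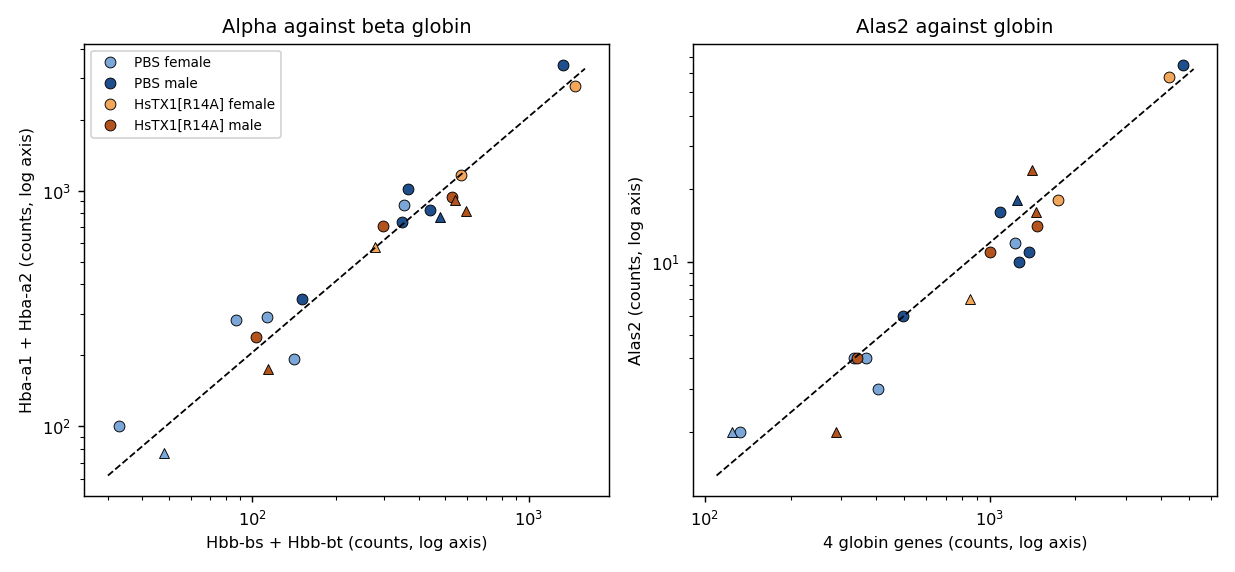
Counts of alpha against beta globin (left) and of Alas2 against the 4 globin genes (right), 1 point per mouse on logarithmic axes, coloured by group, with circles for SAMP8 and triangles for SAMP in the column name; dashed lines are the pooled proportions. The points of all groups lie along the lines, which stand for 67.3% alpha globin among globin counts and 11.8 Alas2 counts per 1000 counts of the 5 genes, and the exact intervals of 8 and of 21 of the 21 mice hold these values.

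The split inside the 2 pairs behaved differently. Hbb-bt was 10.8% of the beta globin counts when pooled (909 of 8382), and the exact interval of 17 of 21 mice held that value. Hba-a2 was 7.67% of the alpha counts when pooled (1324 of 17259), and the interval of only 1 mouse held it, with 8 mice above and 12 below. The Hba-a2 share ran from 0 in 8 mice to 21.6% in PBS female mouse 85 (interval 18.9% to 24.5%). In HsTX1[R14A] male mouse 88 the share was 0 of 705 alpha counts, with an upper bound of 0.522% for counting error only. As C381T is the one coding base that divides the pair, these shares describe how the estimated counts were divided, and what part is a difference in RNA was not tested.

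**Figure D4:**
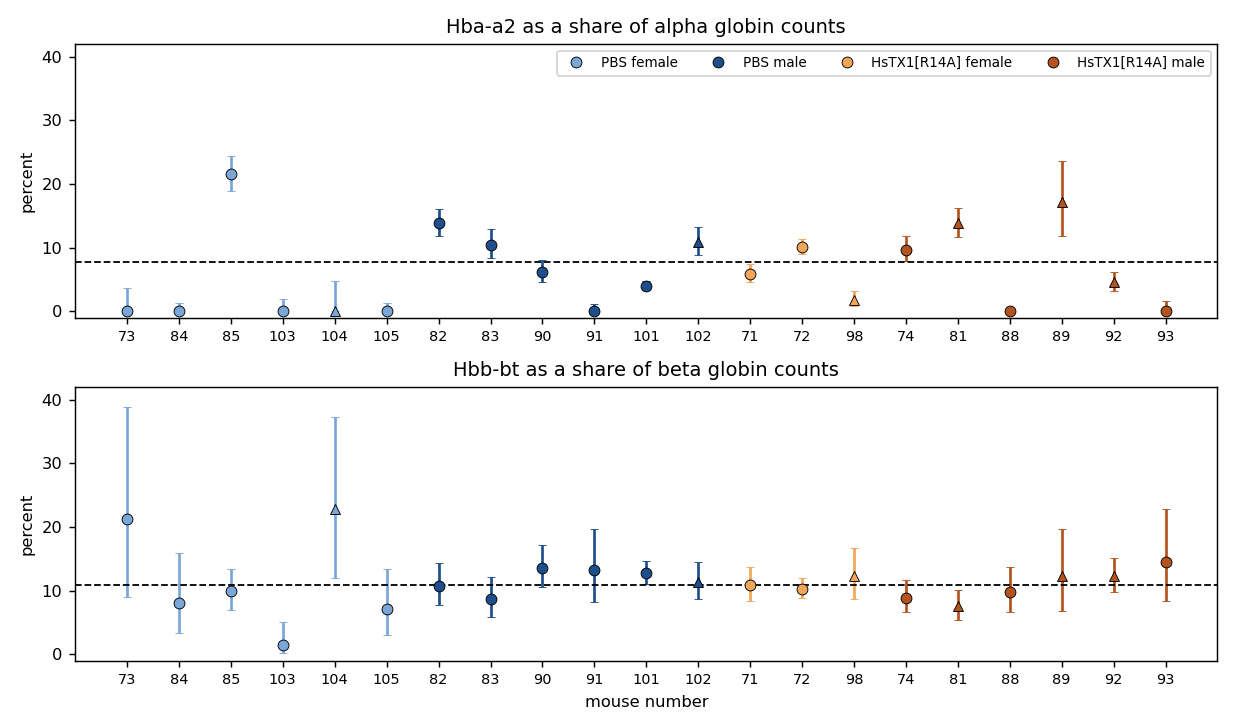
Hba-a2 as a percentage of alpha globin counts (top) and Hbb-bt as a percentage of beta globin counts (bottom) in each mouse, by mouse number and coloured by group; bars are 95% exact binomial intervals, circles and triangles mark SAMP8 and SAMP in the column name, and dashed lines are the pooled shares of 7.67% and 10.8%. The Hba-a2 share was 0 in 8 mice and 21.6% in mouse 85, while 17 of 21 Hbb-bt intervals hold the pooled share.

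Other genes known from red blood cells did not follow globin across the mice. Of 42 erythroid genes listed, 19 were in the table and were tested, and the 23 others, among them Gata1, Klf1 and Slc4a1, were not analysed here. The 19 included Hbq1a, a theta globin, Bpgm, which makes the red cell's 2,3-bisphosphoglycerate, and Ank1 and Sptb, parts of the spectrin membrane skeleton that neurons also use. Their Pearson r with log2 globin CPM ran from -0.25 (Mkrn1) to 0.27 (Tspan33) with a median of 0.00 (-0.0016 before rounding). Hbq1a, at 0.902 ± 0.246 CPM (SD, n = 21), was above the 0.499 ± 0.492 CPM of Alas2 and had r of 0.03. For treatment, 3 of the 19 were called higher and 7 lower in HsTX1[R14A] mice by edgeR, where 31.6% of all genes were called, and the median log2 fold change was -0.09 against -0.01 over all genes. Bnip3l, a mitophagy receptor, fell by 0.48 on the log2 scale (adjusted p = 0.0176), and Ube2l6, an ISG15-conjugating enzyme, fell by 0.40 (adjusted p = 0.0188). Xk, a membrane transport protein, rose by 0.28 (adjusted p = 0.0188). These calls were lost with the length slope as a covariate and in the 15 mice with SAMP8 in the column name. None of the 19 was called in the interaction, where the smallest unadjusted p was 0.121 (Isg20, an exonuclease). Tal1 and Tfrc had interaction values of 0.54 ± 0.34 and 0.24 ± 0.16, and Bcl2l1 -0.16 ± 0.10, none of which passed.

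The heme synthesis pathway was measured in full, with all 14 listed genes tested. For treatment 1 was called higher and 4 lower, near the 31.6% called over all genes, with a median log2 fold change of -0.06 against -0.01 over all genes. Fech, which inserts the iron, fell by 0.24 on the log2 scale (adjusted p = 0.0263 with edgeR), and Abcb6, a porphyrin transporter, rose by 0.28 (0.0237). Both calls were lost with the length slope as a covariate and in the 15 mice with SAMP8 in the column name. Alas1, the form of the first enzyme used outside the erythroid lineage, was at 37.1 ± 5.63 CPM (SD, n = 21) and had a log2 fold change of 0.21 ± 0.09 (adjusted p = 0.0855). None of the 14 was called in the interaction. The smallest unadjusted p there was 0.126, for Ppox at 0.27 ± 0.17, followed by Urod (-0.16 ± 0.14), Tmem14c (-0.25 ± 0.23) and Alad (-0.13 ± 0.14). The r of the 14 genes with globin ran from -0.27 to 0.27.

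Of 24 genes for the clearance of heme and hemoglobin and the handling of iron, 20 were tested, of which 2 were called higher and 4 lower for treatment, near the 31.6% called over all genes. Fth1, the ferritin heavy chain, fell by 0.71 (adjusted p = 0.0151 with edgeR) and Tfrc, the transferrin receptor, fell by 0.25 (0.0274). Lrp1, the receptor that takes up hemopexin with heme, rose by 0.96 (0.0190), a gene with many other ligands in brain. Again these calls were lost with the length slope as a covariate and in the 15 mice with SAMP8 in the column name. In the interaction, Cd163, the macrophage receptor for hemoglobin bound to haptoglobin, had a value of 1.22 ± 0.47, the same sign as the globins (unadjusted p = 0.0181, adjusted p = 1.00). Cp, the ferroxidase ceruloplasmin, followed at 0.52 ± 0.28 and Steap3, an endosomal ferrireductase, at 0.54 ± 0.38. None of the 20 was called there, and their r with globin ran from -0.28 to 0.24 with Hmox1, the enzyme that degrades heme, at the top.

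The other blood and vessel cells that could carry RNA in the same tissue were read from marker lists. Of 12 platelet genes 5 were measured, with a summed level between 10.01 and 22.7 CPM, most of it Gp1bb. Pf4, a defining platelet chemokine, was at 0.407 ± 0.198 CPM (SD, n = 21). Of 20 leukocyte genes only Cd4 and Ighm were measured, the first of which brain microglia also express, and the others were not analysed here. The Pearson r with globin ran from -0.51 (Itga2b) to 0.16 (Itgb3) over the platelet genes, and was -0.17 for Cd4 and -0.08 for Ighm. Over the 16 endothelial genes r ran from -0.29 to 0.35 (median 0.11) and over the 10 mural cell genes from -0.34 to 0.13 (median -0.03). Over the 10 choroid plexus genes it ran from -0.11 to 0.46, the last for Ttr. Their median of 0.26 was the highest of these lists, against -0.0019 over all genes tested outside the 5. The choroid plexus level was not among the library measures tested below. None of the genes in these lists was called in the interaction. The smallest unadjusted edgeR p-values there were 0.0362 for Kcnj8 (-0.64) and 0.0477 for Myh11 (1.10), both mural cell genes. Abcb1a (0.58) of the endothelium followed with 0.0825. For treatment 1 platelet gene was called higher and 1 lower, 1 leukocyte gene lower, 2 endothelial genes and 1 mural gene higher and no choroid plexus gene, where 31.6% of all genes were called.

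Ranking 14660 genes outside the 5 by their r with log2 globin CPM gave Errfi1 the first place (r of 0.619 over 21 mice), followed by Camta1 (0.582), Efna2 (0.582), Kctd6 (0.581) and Pdlim1 (0.577). Cbll1, Gpr135, B4galt6, Rhof and Nr2f1 completed the first 10, down to 0.543. All of these were under the lowest r between any of the 5 red blood cell genes, 0.725 between Hba-a2 and Alas2. They are the highest of many and are given as a description.

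Finally, the globin level was set against 7 measures of the same libraries, with permutation tests and adjustment over the 7. None was past the threshold. The largest was the library total (r of 0.392, permutation p = 0.0800, adjusted 0.560; rho of 0.316, p = 0.166, adjusted 0.752). Without the 2 mice farthest from the median total r was 0.295, and within the 15 libraries with SAMP8 in the name it was 0.574 (permutation p = 0.0254, adjusted 0.178). The mitochondrial share had r of -0.125, the length slope 0.0899, the endothelial score 0.0869, the mural score -0.139, the platelet score -0.175 and the leukocyte score -0.162, each with an adjusted permutation p of 0.707. The 6 libraries with SAMP in the name, 1 in each group except 3 in HsTX1[R14A] male, spanned 5.73 to 86.5 CPM of globin, and the other 15 spanned 9.26 to 154 CPM.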

How the data were processed

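Whole-brain RNA of 21 SAMP8 mice was sequenced by the authors, aligned to GRCm38 with STAR and quantified with Salmon in nf-core/rnaseq 3.2. The labels and the study's methods name different library kits, so strand handling is not settled here. The deposited values used are estimated counts per gene, not whole for shared reads (90.496% lay within 0.01 of a whole number), and were rounded. A further 53 per-sample columns (37 CPM and 16 counts) were not used, nor were the authors' fold changes and false discovery rates.

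Counts were tested with edgeR 4.0.16 (quasi-likelihood, TMM, filterByExpr on the 4 groups), with Benjamini-Hochberg correction over 16303 genes and a threshold of 0.05, in R 4.3.3. The model held sex and treatment, and for effects within a sex the 4 groups. An SE is the log2 fold change over the square root of its F statistic. Alternatives were limma 3.58.1 with voom, DESeq2 1.42.0, RLE scaling, other filters, covariates, subsets and leaving out each mouse. Log2 CPM had a prior count of 2, correlations 100000 resamples, and scripts were tested on simulated data. Library totals of 14917174 to 47613792 counts left 2 to 65 counts for Alas2, which limits its precision. The members and gene lists were chosen with earlier results of these data known. From the erythroid, heme synthesis and iron lists, the text names up to 4 genes with the smallest p in the interaction and up to 3 in the treatment fit, and those named for a role or as the end of a range were chosen after their values were seen. The values of 1 gene that this rule names are not reported here. Of the other lists it names defining markers and the smallest interaction p-values, and of all genes the 10 most like globin. Sums, ratios and correlations between members are descriptions. Groups share no mouse numbers, so nothing was paired.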

Additional observations from a re-analysis of the deposited data

Results flagged for a closer look

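PBS male mouse 101 stood apart from the other 5 PBS male mice in 4 of the 5 genes, its gap to the next mouse exceeding Dixon's 95% limit for 6 samples. It had 107 CPM of Hba-a1 where the next mouse had 38.5, 37.6 CPM of Hbb-bs where the next had 14.4, 5.52 CPM of Hbb-bt where the next had 2.19 and 2.11 CPM of Alas2 where the next had 0.625. For the 4 globins summed the values were 154 and 60.7 CPM. PBS female mouse 85 stood apart in Hba-a2, at 5.22 CPM where the other 5 PBS female mice were at 0, and so also in the share of alpha globin counts given to Hba-a2, at 21.6%. HsTX1[R14A] male mouse 81 stood apart in Hba-a2, at 7.53 CPM where the next mouse had 2.49. In all, 8 values stood apart in 30 groups of values tested, and those of mouse 101 count as a single observation since the 5 genes move together. The limit was applied to CPM, shares and ratios and assumes normally distributed values, which was not tested, so no rate by chance is given. On log2 CPM, where the limit was not applied, mouse 101 was less far apart. For Hba-a1 it had 6.74, the next PBS male mouse 5.27 and the lowest 3.47.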

How the results depend on the processing

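None of the 5 genes passed the adjusted threshold in the treatment, sex, interaction, female or male comparison under any alternative that gave an adjusted p. In the comparison of the sexes among PBS mice, added after seeing the data, DESeq2 called 1 of the 5. With at least 10 counts in every mouse, Hba-a1 and Hbb-bs alone could be tested. Summing each globin pair to 1 row, also added after seeing the data, gave an interaction of 2.21 for alpha and 1.93 for beta globin, and again no call. With the length slope as a covariate the sign turned for Hba-a2 in the treatment comparison (-0.68) and for Hbb-bs in males (0.010). Leaving out 1 mouse turned Hba-a2 for treatment (-0.25 to 1.14), Alas2 for treatment (-0.091 to 0.85), and in males Hbb-bs (-0.50 to 0.32), Hbb-bt (-0.86 to 0.12) and Alas2 (-0.94 to 0.21). Hbb-bs in males was 0.32 without PBS male mouse 101, 0.02 without HsTX1[R14A] male mouse 89 and 0.03 without mouse 93, and Hba-a2 for treatment was -0.25 without HsTX1[R14A] female mouse 72 and -0.04 without HsTX1[R14A] male mouse 81. Counts over all genes moved more: treatment, 5144 in the report, gave 1999 with the column name form as covariate, 2984 with no sex term, 0 in the 15 mice of the more common form, 0 with the length slope, and 2289 to 6614 when 1 mouse was left out (2289 without PBS male mouse 90). DESeq2 called 26 genes for sex (9 in edgeR), 92 in females and 212 in males (0 in edgeR) and 12 for sex among PBS mice (7). Under the stricter filter of 10 counts the calls for sex were 1 and, among PBS mice, 0. The cause was not tested. No other setting turned the direction of a gene. No paired analysis was possible because the groups share no replicate numbers. Low counts limit Alas2 and Hbb-bt, which had as few as 2 counts in a library, and 3 treated females limit the comparison within females.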
